A study of Mus musculus with 8 samples.

Results

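The genes described here are 38 genes of glucose breakdown and of the cellular response to low oxygen, chosen by name from the 54532 genes of the deposited table. All 38 names were found, on 39 entries, because Aldoa names both the main aldolase A gene and a short neighbouring locus (ENSMUSG00000114515) whose level stayed between 0.163 and 1.07 FPKM (fragment counts scaled by gene length and sequencing depth). The cells were MICFs, fibroblast preparations isolated from infarcted mouse hearts 6 days after the infarction, which by the study's own description also hold macrophages. Cells of all 4 groups carried lentiviral, Dox (doxycycline) inducible constructs for the reprogramming factors MGT (Mef2c, Gata4 and Tbx5), Myocd and Sall4, and for eGFP, which reads out as green fluorescence. For the in vivo samples these cells were injected into the left ventricle of male C57BL/6 mice, 8 weeks old, with an infarct, which received Dox in the drinking water and the immunosuppressants tacrolimus, mycophenolate mofetil and methylprednisolone. For the in vitro samples they stayed in a culture medium of DMEM and M199 with serum, serum replacement, Dox, the TGF-beta receptor inhibitor SB431542 and the JAK inhibitor baricitinib. The comparison in vivo against in vitro is therefore also a comparison of host, drugs and medium, and these cannot be told apart. eGFP-positive cells were sorted at 1 and 2 weeks (days 7 and 14), with 2 libraries in each of the 4 groups. The labels do not say whether replicates came from separate animals or cultures, so p-values measure the spread between these libraries, which may be technical.

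The libraries held 12304242 to 14546904 fragments on genes, with a median of 12919717, and replicates differed by 4.32 to 9.29 times the variance that counting error gives. Values were compared on log2(FPKM + 0.1) with limma across the 15708 genes with at least 0.5 FPKM in at least 2 libraries, and all 39 entries passed that filter. A gene passed the test at a Benjamini-Hochberg adjusted p under 0.01 together with an absolute log2 fold change over 1. Fold changes on this scale understate the change of genes near the pseudocount. In bulk libraries such as these, fewer cells of a type and less RNA per cell cannot be told apart.

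Glycolysis splits glucose into pyruvate through a fixed series of enzymes, several of which come as isoforms from separate genes used by different tissues. Pyruvate is either reduced to lactate and exported, or oxidised in mitochondria, the main route in the adult heart. When oxygen is low, the prolyl hydroxylases of the Egln family stop marking the factor HIF-1alpha for destruction, and HIF then raises transcription of glycolytic enzymes and of genes for blood vessel growth, acid balance and collagen maturation. HIF-1alpha is controlled mainly at the protein level, which RNA sequencing does not measure.

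The 38 genes did not move as a block. At 1 week 4 of the 39 entries were higher in vivo, namely Hk2, Pfkfb3, Ndrg1 and P4ha2, and 4 were lower, namely Aldoc, Eno3, Ldhb and Slc16a1. Over all tested genes 12.9% passed the test at that week, 7.79% higher and 5.07% lower. At 2 weeks P4ha2 alone was higher and 6 genes were lower, namely Aldoc, Eno3, Ldhb, Slc16a1, Egln3 and Car9, against 17.1% of all tested genes, 9.02% higher and 8.05% lower. The split between directions was thus 4 to 4 at 1 week and 1 to 6 at 2 weeks. In all, 8 of the 39 entries passed at 1 week and 7 at 2 weeks, the latter a share close to that of all genes, and whether the entries differed from all genes was not tested.

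Smaller differences were frequent. Counting every adjusted p under 0.01 in limma whatever the fold change, 8 entries were higher and 18 lower at 1 week, where 14.7% and 12.4% of all tested genes were. At 2 weeks 3 were higher and 21 lower, where 16.9% and 17.3% of all tested genes were. The median log2 fold change of the 39 entries was -0.30 at 1 week and -0.45 at 2 weeks, while that of all tested genes was -0.01 and -0.00. The FPKM of all 4 in vivo libraries lay above those of all 4 in vitro libraries for 9 entries and below them for 18, and 20.5% and 20.0% of all tested genes were separated in this way.

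**Figure D1:**
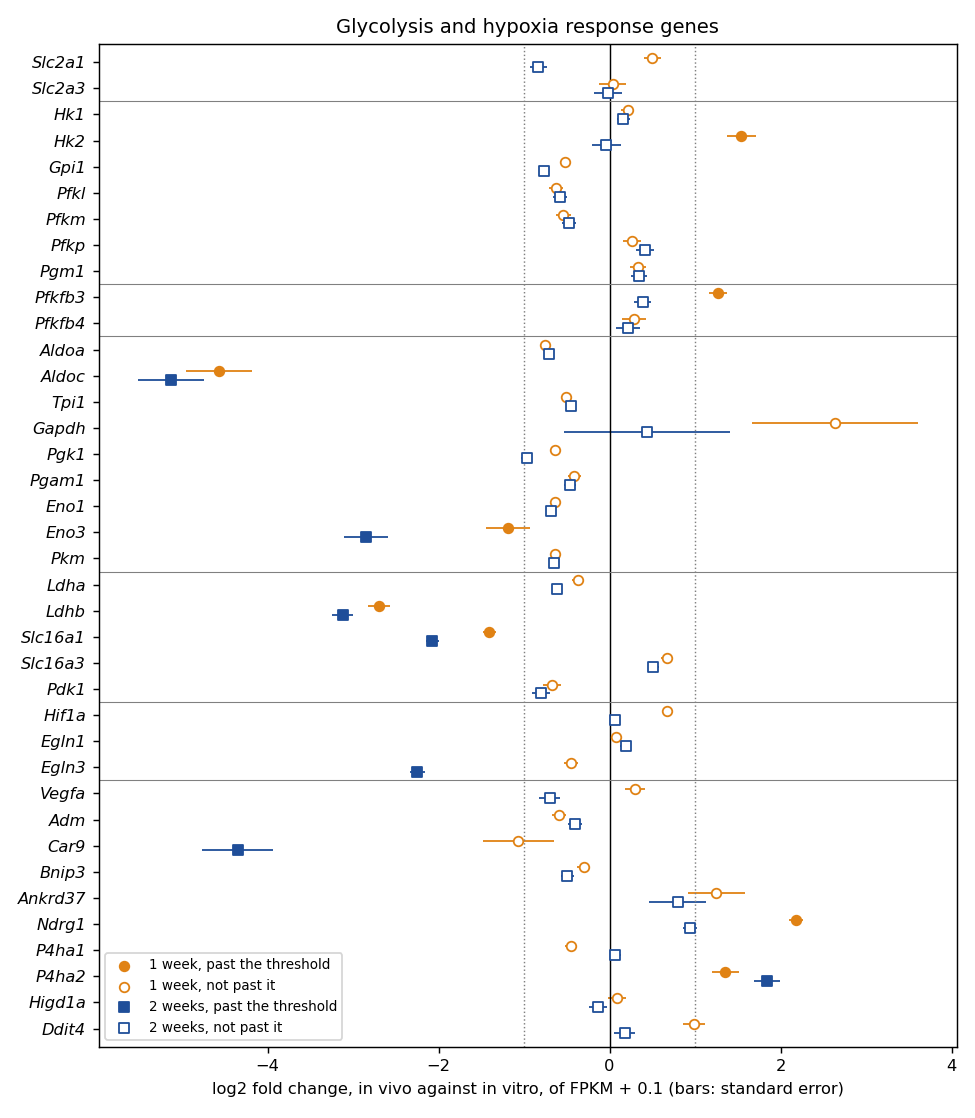
Log2 fold change of 38 genes, in vivo against in vitro, at 1 week (circles) and 2 weeks (squares), with the standard error from limma as bars and filled symbols for those past the test; grey lines divide the roles from glucose transport at the top to hypoxia effectors at the bottom, and dotted lines mark the fold limit of 1. The points of most lower glycolysis genes sit left of 0 at both weeks, Aldoc lies farthest left with values of -4.57 and -5.13, and the genes past the test on the right at 1 week are Hk2, Pfkfb3, Ndrg1 and P4ha2. Gapdh, drawn at 2.64 at 1 week, did not pass the test and cannot be read, for the reason given in the text.

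HIF binds DNA at a short core written ACGTG or GCGTG. Promoters of 35 of the 38 genes, 49 windows from 250 bases before to 50 after a start site, were read from RefSeq on GRCm38.p6, and Ndrg1 and Slc2a3 had none in that table. Pgm1 was left out, because RefSeq gives this name to a gene on chromosome 4 and the deposited table to one on chromosome 5. ACGTG stood on either strand in 28 of the 49 windows (57.1%), of 25 genes, and in 19.6% of all 32851 promoter windows. GCGTG stood in 30 of the 49 (61.2%) and in 32.4% of all. The windows of these genes were also richer in G and C, with a median of 62.3% and 20 CG pairs, against 52.7% and 7 CG pairs over all windows, and both cores contain CG. The stretches around ACGTG before the start site are shown for genes past a test below, read along the gene, with the core in capitals and as CACGT where it lies on the other strand.
Hk2, 50 bases before the start, chr6:82774490-82774518, minus strand: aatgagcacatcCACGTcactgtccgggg
Pfkfb3, 58 bases before its upstream start, chr2:11553973-11554001, minus strand: ctccgcgccgtgACGTGccaagctgtgac
Pfkfb3, 50 bases before its downstream start, chr2:11502126-11502154, minus strand: acccttctctccACGTGaaagggggctgg
P4ha2, 76 bases before the start, chr11:54100834-54100862, plus strand: tgtgcatcgcatACGTGcagcgcgtggcg
Slc2a1, 34 bases before the start, chr4:119108697-119108725, plus strand: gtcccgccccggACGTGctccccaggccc
Slc16a1, 197 bases before the start, chr3:104638453-104638481, plus strand: cggcgccgggtcACGTGgcgggaaggggg
Egln3, 227 bases before the start, chr12:54204087-54204115, minus strand: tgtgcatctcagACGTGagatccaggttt
Car9, 16 bases before the start, chr4:43506996-43507024, plus strand: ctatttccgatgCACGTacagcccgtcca
The core was thus found both in genes that were higher in vivo (Hk2, Pfkfb3, P4ha2) and in genes that were lower (Slc16a1, Egln3, Car9). In the lines of Slc16a1 and of the downstream start of Pfkfb3 it lies within CACGTG, so that it reads on both strands. The window of Aldoc held ACGTG after the start site, and those of Ldhb and Eno3 held GCGTG but not ACGTG. A match describes letters in a window and does not show that a factor binds there.

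Along the main line of the pathway the in vivo samples were lower by a similar amount at nearly every step. The 9 genes in question were the most abundant gene of each step from glucose 6-phosphate to lactate, Gapdh excepted, and were picked with their levels known: Gpi1, Pfkl, Aldoa, Tpi1, Pgk1, Pgam1, Eno1, Pkm and Ldha. Their summed level was 835 and 824 FPKM in vivo against 1258 and 1219 FPKM in vitro at 1 week. The sum at 2 weeks was 738 and 728 FPKM in vivo against 1182 and 1133 FPKM in vitro. None of the 9 genes had overlapping in vivo and in vitro libraries. All 9 are among the 18 entries counted above as separated in this direction, as were 20.0% of all tested genes. Their separation is thus not a further result.

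Each of these 9 genes had an adjusted p under 0.01 in limma at both weeks, the highest being 0.0045 at 1 week and 0.0021 at 2 weeks, yet none reached the fold limit on the deposited scale. Under quantile normalization Aldoa and Pkm passed the test as lower at 1 week and Aldoa and Pgk1 at 2 weeks, and without the scaling between libraries Aldoa did at 1 week and Aldoa, Eno1, Gpi1 and Pgk1 at 2 weeks. All 9 were below 0 under each of these scalings. On the deposited scale the level in vivo was lower by 22.8% to 40.8% at 1 week and by 26.7% to 48.9% at 2 weeks. Aldoa, which cleaves fructose 1,6-bisphosphate, measured 153, 150, 152 and 159 FPKM in the 4 in vivo libraries and 255, 258, 260 and 248 FPKM in the 4 in vitro libraries. Its log2 fold change was -0.76 (SE 0.06) at 1 week and -0.71 at 2 weeks, with hardly any spread within either setting. Pgk1, which makes the first ATP of the pathway, measured 102 and 101 FPKM in vivo at 1 week and 68.1 and 70.1 FPKM at 2 weeks, against 161, 153, 141 and 130 FPKM in vitro. Its log2 fold change of -0.97 (SE 0.06) at 2 weeks was the nearest of the 9 to the fold limit. Without the scaling between libraries that the deposited FPKM already contain, the median of all genes moved to -0.34 at 1 week and -0.32 at 2 weeks, and changes are given relative to the scaled median.

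The summed level of 12 macrophage markers, of which Lyz2 made up the largest part, was also lower in vivo. It was 2748 to 3150 FPKM in vivo and 5308 to 6049 FPKM in vitro at 1 week, and 2009 to 2425 against 4951 to 6073 FPKM at 2 weeks. Without Lyz2 the sum was 1417 to 1697 FPKM in vivo and 1734 to 2034 FPKM in vitro at 1 week, and 1034 to 1223 against 2030 to 2362 FPKM at 2 weeks. The markers did not move alike at 1 week, where Fcgr1 was higher (2.61) and Lyz2 lower (-1.45), while C1qa (-0.01), Csf1r (0.04) and Ptprc (0.15) did not pass the test. At 2 weeks 6 of the 12 were lower, and none was at 0. Their part in the result was not tested.

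**Figure D2:**
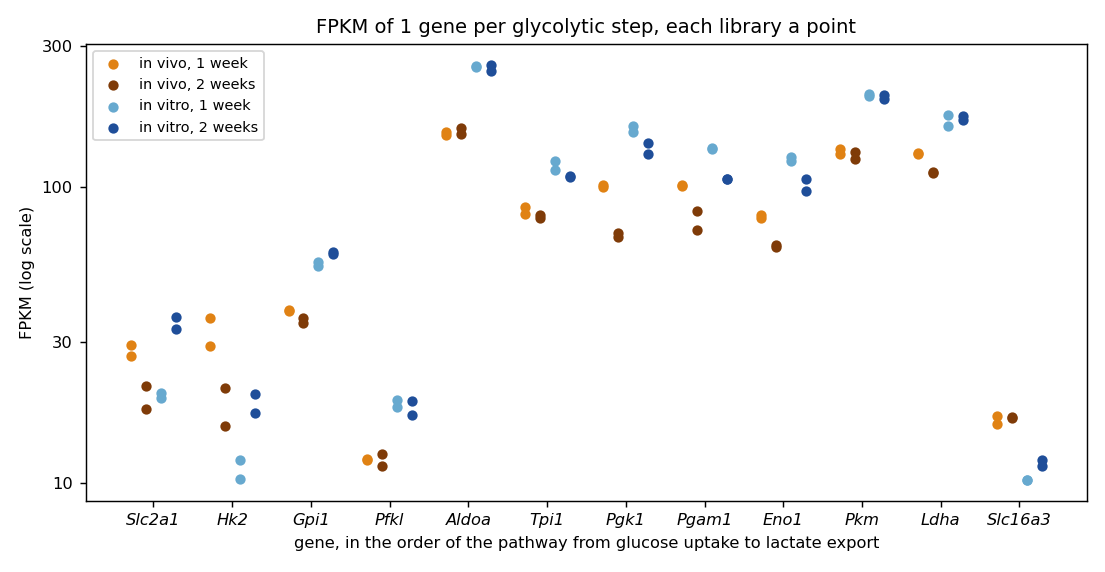
FPKM on a log scale of 12 genes in pathway order, from the glucose transporter Slc2a1 to the lactate exporter Slc16a3, with each library a point and the 4 groups side by side. From Gpi1 to Ldha all in vivo points lie below all in vitro points, while Slc16a3 shows the reverse, Slc2a1 changes order between the weeks and Hk2 overlaps at 2 weeks.

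The entry of glucose gave a mixed picture, in which Hk2 passed the test at 1 week while Hk1, Slc2a1 and Slc2a3 did so at neither week. Hk2 (chr6:82725025-82774454, minus strand), the inducible hexokinase that traps glucose in the cell, measured 36.1 and 29.1 FPKM in vivo and 10.3 and 11.9 FPKM in vitro at 1 week. Its level at 2 weeks was 21.0 and 15.6 FPKM in vivo and 17.2 and 20.0 FPKM in vitro. The groups were apart at 1 week and overlapped at 2 weeks. Hk2 had a log2 fold change of 1.54 (SE 0.17) at 1 week, with an adjusted p of 0.00049 in limma with Benjamini-Hochberg adjustment, and -0.04 (SE 0.17) at 2 weeks, with an adjusted p of 0.88. The test of the difference between the weeks missed the threshold for Hk2, with -1.58 (SE 0.24) and an adjusted p of 0.012 in limma. Hk1, the housekeeping hexokinase, lay between 9.38 and 11.7 FPKM in all libraries.

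Slc2a1, the basal glucose transporter GLUT1, changed its order between the weeks. It measured 29.1 and 26.8 FPKM in vivo against 20.2 and 19.3 FPKM in vitro at 1 week, and 21.2 and 17.7 FPKM in vivo against 33.0 and 36.3 FPKM in vitro at 2 weeks. The in vivo libraries were thus the higher ones at 1 week and the lower ones at 2 weeks. Slc2a1 had log2 fold changes of 0.50 (SE 0.10, adjusted p 0.0070) and -0.83 (SE 0.10, adjusted p 0.00056) in limma, both under the fold limit. The change between the weeks, -1.33 (SE 0.14), passed the test with an adjusted p of 0.0045 in limma. Leaving out any 1 of the 8 libraries ended that call, at differences of -1.46 to -1.20. Far fewer of all tested genes passed in those fits as well. Slc2a3, a high-affinity transporter, stayed between 1.89 and 2.51 FPKM in all libraries.

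Pfkfb3, which makes fructose 2,6-bisphosphate, the activator of phosphofructokinase, passed the test at 1 week. Its level was 16.7 and 15.6 FPKM in vivo against 6.13 and 7.21 FPKM in vitro at 1 week, and 12.5 and 11.1 FPKM against 9.05 and 8.95 FPKM at 2 weeks. In vivo libraries were above in vitro libraries at both weeks, by less at 2 weeks. Fitted log2 fold changes were 1.27 (SE 0.10), with an adjusted p of 0.00011 in limma, at 1 week and 0.39 (SE 0.10, adjusted p 0.017) at 2 weeks. Without the scaling between libraries the value at 1 week was 0.93, under the fold limit. Pfkfb4, its paralogue, lay between 2.26 and 3.59 FPKM and did not pass the test.

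The phosphofructokinase isoforms themselves did not shift together. Pfkl (liver type) was part of the main line above. Pfkm (muscle type) measured 8.57 and 7.47 FPKM in vivo against 11.6 and 11.7 FPKM in vitro at 1 week, and 12 and 11.1 FPKM against 16.3 and 15.8 FPKM at 2 weeks, with log2 fold changes of -0.54 and -0.47 (adjusted p 0.0024 and 0.0034 in limma) under the fold limit. Pfkp (platelet type) measured 5.82 to 6.45 FPKM in vivo and 4.33 to 5.59 FPKM in vitro, with log2 fold changes of 0.26 and 0.41 that did not pass the test, the former being -0.07 without the scaling between libraries. The chromosome 5 gene of the phosphoglucomutase family that the table names Pgm1 (ENSMUSG00000029171) measured 11.3 to 12.6 FPKM in vivo and 8.43 to 10.7 FPKM in vitro, again short of the test. Since RefSeq gives the name Pgm1 to a gene on chromosome 4, this entry may not be the phosphoglucomutase that links glycogen to glycolysis.

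The largest differences past the test within glycolysis, those of Aldoc and Ldhb, lay in genes for second isoforms. Aldoc (ENSMUSG00000017390, chr11:78322968-78327781, plus strand), the aldolase known from brain, measured 0.576 and 0.494 FPKM in vivo against 15.7 and 14.2 FPKM in vitro at 1 week. At 2 weeks it measured 3.07 and 1.11 FPKM in vivo against 68.4 and 68.8 FPKM in vitro. Every in vitro library was above every in vivo library, and the lowest in vivo library had 21 fragments on the gene. In limma the log2 fold change was -4.57 (SE 0.39, adjusted p 0.00014) at 1 week and -5.13 (SE 0.39, adjusted p 6.5e-05) at 2 weeks. These are levels 23.7 and 35.1 times lower on the log2(FPKM + 0.1) scale.

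Ldhb (ENSMUSG00000030246, chr6:142490249-142507957, minus strand), the heart-type subunit of lactate dehydrogenase, measured 9.47 and 9.05 FPKM in vivo against 62.8 and 58.1 FPKM in vitro at 1 week. At 2 weeks it measured 15.4 and 11.5 FPKM in vivo against 118 and 115 FPKM in vitro. The gap between the settings was wider than the spread within any group. In limma this gave a log2 fold change of -2.69 (SE 0.13, adjusted p 1.1e-05) at 1 week and -3.12 (SE 0.13, adjusted p 4.6e-06) at 2 weeks. Eno3, the muscle enolase, measured 5.26 and 4.72 FPKM in vivo against 11.4 and 11.5 FPKM in vitro at 1 week, and 2.75 and 5.0 FPKM against 31.2 and 23.9 FPKM at 2 weeks. Its log2 fold change was -2.85 (SE 0.26, adjusted p 0.00015 in limma) at 2 weeks. At 1 week it was -1.19 (SE 0.26) with an adjusted p of 0.0099, just inside the threshold in limma. That call at 1 week ended when any 1 of the 4 libraries of that week was left out (adjusted p 0.046 to 0.066) or either in vitro library of 2 weeks (0.016).

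Set against the main isoform, Ldhb, Aldoc and Eno3, which had already passed the test as lower, made up a smaller share of the FPKM in vivo. Ldhb was 6.54% to 12.1% of Ldha and Ldhb together in vivo and 26.3% to 40.6% in vitro. Aldoc was 0.328% to 1.98% of both aldolases in vivo and 5.23% to 21.8% in vitro. Eno3 was 4.13% to 7.40% of both enolases in vivo and 8.31% to 22.7% in vitro. In each of these families the 4 in vivo libraries lay below the 4 in vitro libraries, and the share was highest in vitro at 2 weeks. The same held for Slc16a1 in its pair, given below, and for Egln3, both of which had also passed the test as lower. Egln3 was 18.3% to 25.9% of Egln1 and Egln3 together in vivo and 31.8% to 57.1% in vitro. The shares of Pfkm and Hk2 overlapped between the settings. Pfkm was 29.0% to 39.2% of the phosphofructokinases in vivo and 32.7% to 42.5% in vitro. Hk2 was 57.9% to 76.8% of Hk1 and Hk2 together in vivo and 52.4% to 67.4% in vitro.

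**Figure D3:**
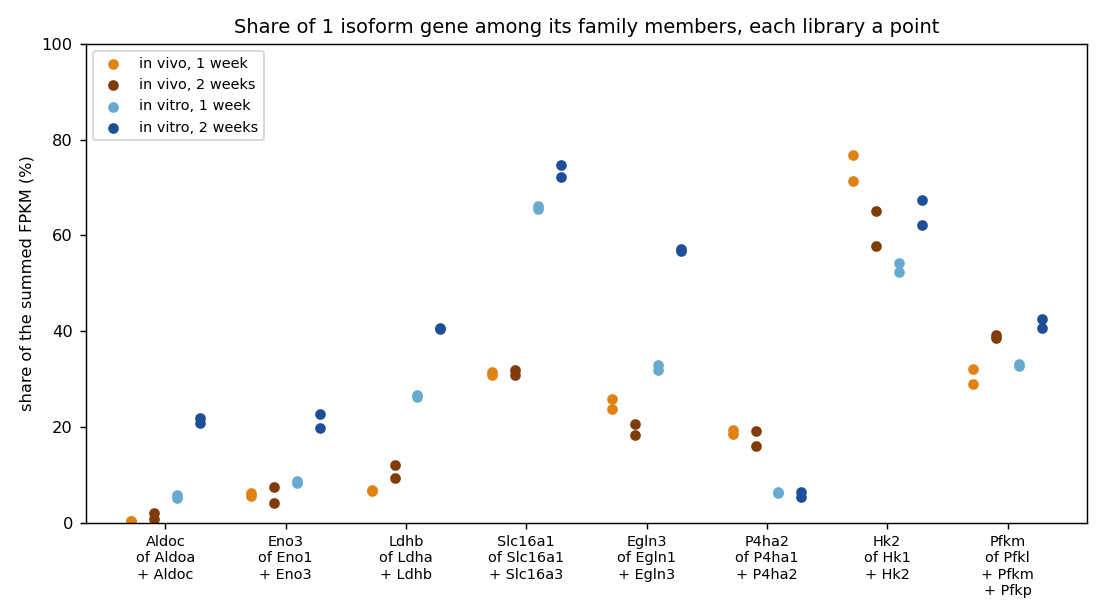
Share of 1 isoform gene in the summed FPKM of its family, in percent, with each library a point. The shares of Aldoc, Eno3, Ldhb, Slc16a1 and Egln3 are lower in all in vivo libraries than in all in vitro libraries, that of P4ha2 is higher, and those of Hk2 and Pfkm overlap.

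Cardiomyocyte markers moved with Ldhb, Eno3 and Aldoc. The summed level of 10 such markers was 16.4 to 19.6 FPKM in vivo and 166 to 188 FPKM in vitro at 1 week, and 27.5 to 48.8 against 1032 to 1224 FPKM at 2 weeks. Of 9 markers tested, 7 were lower and 1 higher in vivo at 1 week, 7 lower and 2 higher at 2 weeks, and none was at 0 in every library of a setting. Their part in the result was not tested.

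The RNA of the lactate transporter genes Slc16a1 and Slc16a3 differed in opposite directions, while transport itself was not measured. Slc16a1 (ENSMUSG00000032902, chr3:104638668-104658462, plus strand), the transporter MCT1 that moves lactate and pyruvate in either direction, measured 7.04 and 7.70 FPKM in vivo against 19.9 and 19.4 FPKM in vitro at 1 week. The values at 2 weeks were 7.81 and 7.34 FPKM in vivo against 30.8 and 33.6 FPKM in vitro. Levels in vivo were nearly the same at both weeks, and the in vitro libraries were far above them. The log2 fold change was -1.41 (SE 0.08, adjusted p 2.2e-05) and -2.07 (SE 0.08, adjusted p 3.4e-06) in limma. Slc16a3, the exporter MCT4 of glycolytic cells, had the opposite order, with 15.8 to 16.7 FPKM in vivo and 10.2 to 11.9 FPKM in vitro. Its log2 fold changes of 0.67 and 0.51 had adjusted p-values of 0.00022 and 0.00061 in limma but were under the fold limit. Slc16a1 was 30.8% to 31.9% of the pair in vivo and 65.5% to 74.8% in vitro.

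Pdk1, the kinase that shuts pyruvate dehydrogenase, measured 3.34, 3.70, 2.93 and 2.88 FPKM in vivo and 5.41, 5.94, 5.46 and 4.81 FPKM in vitro. Its log2 fold changes were -0.67 and -0.80 with adjusted p-values of 0.0027 and 0.00097 in limma, under the fold limit. Gapdh cannot be read from this table. It measured 0.849, 1.09, 1.08 and 14.0 FPKM in vitro and 5.19 to 6.63 FPKM in vivo, and 48 other annotated genes were at least 97% identical to its transcript over 200 bases or more. Those copies held 201 to 420 fragments per library, against 54 to 785 on Gapdh itself.

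Of the oxygen sensors, Egln3 moved and Egln1 did not pass the test. Egln3 (chr12:54178981-54203860, minus strand), a prolyl hydroxylase that HIF itself induces, measured 7.19 and 6.81 FPKM in vivo against 9.05 and 10.1 FPKM in vitro at 1 week. A week later it measured 5.96 and 5.48 FPKM in vivo against 27.6 and 27.3 FPKM in vitro. The in vitro libraries at 2 weeks stood far above the other 6. The log2 fold change was -0.45 (SE 0.08) at 1 week and -2.25 (SE 0.08, adjusted p 3.3e-06) at 2 weeks in limma. The change of the difference between the weeks was -1.80 (SE 0.12) with an adjusted p of 0.0021 in limma. That call ended without either in vivo library of 1 week, the in vitro library 1 of 1 week or either in vitro library of 2 weeks. The difference was then -1.84 to -1.72, and far fewer of all tested genes passed in those fits as well. Egln1, the main oxygen sensor in most cells, lay between 19.4 and 24.5 FPKM in all libraries.

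Hif1a, which encodes the oxygen-regulated subunit, measured 50.9 and 50.5 FPKM in vivo against 31.3 and 32.2 FPKM in vitro at 1 week, and 37.5 and 36.8 FPKM against 34.3 and 37.0 FPKM at 2 weeks. The in vivo libraries were apart at 1 week and met the in vitro range at 2 weeks. The log2 fold change of 0.67 (SE 0.06) at 1 week had an adjusted p of 0.00015 in limma and was under the fold limit, and at 2 weeks it was 0.06 (SE 0.06, adjusted p 0.42).

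The effectors of the hypoxia response went in both directions. Ndrg1 (chr15:66929318-66969640, minus strand), a stress and differentiation gene induced by hypoxia, measured 16.7 and 15.9 FPKM in vivo against 3.54 and 3.52 FPKM in vitro at 1 week, and 14.7 and 14.6 FPKM against 7.08 and 8.07 FPKM at 2 weeks. The in vivo libraries were higher at both weeks, and the gap was smaller at 2 weeks. The log2 fold change was 2.18 (SE 0.08, adjusted p 4.2e-06) at 1 week and 0.95 (SE 0.08, adjusted p 0.00013), under the fold limit, at 2 weeks in limma. The difference between the weeks was -1.23 (SE 0.12, adjusted p 0.0036 in limma). Leaving out any 1 of the 8 libraries ended that call, at differences of -1.32 to -1.14. Far fewer of all tested genes passed in those fits as well.

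P4ha2 (chr11:54100095-54131665, plus strand), a catalytic subunit of collagen prolyl 4-hydroxylase, was the gene among the 38 that passed the test as higher in vivo at both weeks. It measured 16.2 and 17.9 FPKM in vivo against 6.97 and 6.25 FPKM in vitro at 1 week, and 13.2 and 17.2 FPKM against 4.6 and 3.71 FPKM at 2 weeks. No in vitro library reached the lowest in vivo library. Its log2 fold change was 1.36 (SE 0.15, adjusted p 0.00055) and 1.84 (SE 0.15, adjusted p 0.00010) in limma. P4ha1, the other catalytic subunit, measured 69.1 to 74.4 FPKM in vivo and 66.6 to 103 FPKM in vitro. P4ha2 was 16.1% to 19.4% of the pair in vivo and 5.28% to 6.32% in vitro. The summed level of 10 fibroblast markers, collagen genes among them, was 11014 to 14042 FPKM in vivo and 2424 to 3675 FPKM in vitro, with 6 of 10 higher at 1 week, 7 at 2 weeks and none at 0, and their part in the result was not tested.

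Car9, the membrane carbonic anhydrase of hypoxic cells, was low in most libraries. It measured 1.00 and 0.700 FPKM in vivo against 2.26 and 1.54 FPKM in vitro at 1 week, and 0.615 and 0.196 FPKM against 8.97 and 9.61 FPKM at 2 weeks. The in vitro libraries of 2 weeks stood above the other 6. Car9 had a log2 fold change of -4.35 (SE 0.41, adjusted p 0.00019) in limma at 2 weeks and -1.07 (SE 0.41, adjusted p 0.077) at 1 week, and the gene had between 5 and 301 fragments per library.

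**Figure D4:**
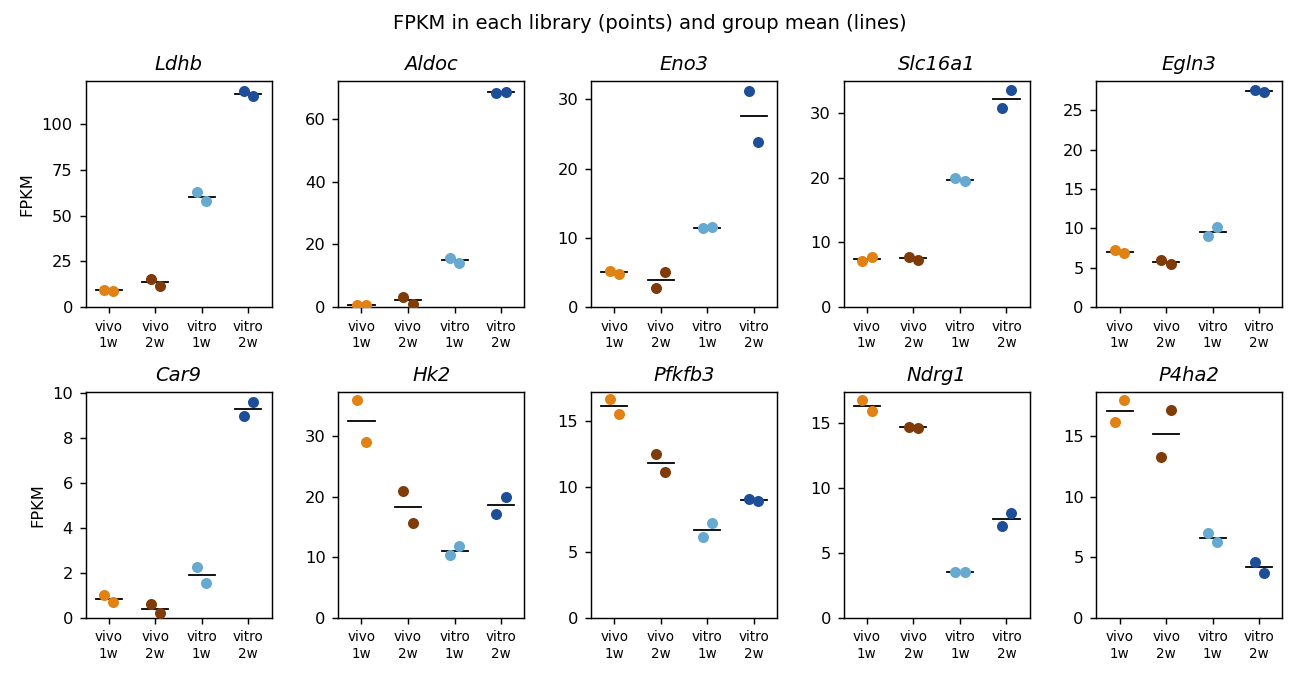
FPKM from 0 upward in each library (points) with the group mean (line) for the 10 genes past the test in vivo against in vitro at either week. Ldhb, Aldoc, Eno3, Slc16a1, Egln3 and Car9 reach their highest points in vitro at 2 weeks, while Hk2, Pfkfb3 and Ndrg1 are highest in vivo at 1 week and P4ha2 is high in vivo at both weeks.

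The other effectors did not pass the test in vivo against in vitro. Vegfa, the growth factor for blood vessels, measured 66.0 and 51.1 FPKM in vivo at 1 week and 27.5 and 31.0 FPKM at 2 weeks, against 46.9 to 48.0 FPKM in all in vitro libraries. The in vivo libraries thus lay above the in vitro range at 1 week and below it at 2 weeks, with log2 fold changes of 0.30 (SE 0.12), which was -0.04 without the scaling between libraries, and -0.70 (SE 0.12). Ddit4, an inhibitor of mTORC1, measured 210 and 166 FPKM in vivo against 96.7 and 91.8 FPKM in vitro at 1 week, where its log2 fold change of 0.99 (SE 0.12, adjusted p 0.00088 in limma) was just under the fold limit. At 2 weeks Ddit4 measured 143 and 122 FPKM in vivo against 113 and 121 FPKM in vitro. Adm, the vasodilator adrenomedullin, measured 16.1 to 18.5 FPKM in vivo and 23.3 to 27.0 FPKM in vitro. Bnip3, which targets mitochondria for removal, measured 10.8 to 13.8 FPKM in vivo and 15.6 to 16.3 FPKM in vitro. The in vivo libraries lay wholly below the in vitro libraries for Adm and Bnip3, as for 20.0% of all tested genes. For Ddit4 and Ankrd37 they lay wholly above, as for 20.5% of all tested genes. Ankrd37 measured 2.34 to 4.44 FPKM in vivo and 1.00 to 1.93 FPKM in vitro, and Higd1a lay between 9.14 and 14.0 FPKM in all libraries.

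Endothelial markers also differed. Their sum over 7 genes was 78.6 to 89.3 FPKM in vivo against 20.9 to 21.9 FPKM in vitro at 1 week and 71.3 to 78.6 against 42.9 to 51.4 FPKM at 2 weeks, with 6 and 3 of the 7 higher and none at 0. Summed over 5 genes, erythroid markers lay at 4.02 to 6.57 FPKM in vivo and 0.331 to 0.648 FPKM in vitro, where Hba-a2 was at 0, and 2 of 4 tested were higher at each week. The 4 T cell markers summed to 0.629 to 2.26 FPKM, with Cd3g and Cd3d at 0 in vitro. Their part in the results above was not tested.

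Time in culture moved 3 of the 39 entries past the test, all of them higher at 2 weeks, where 3.81% of all tested genes passed, 2.76% higher and 1.05% lower. Egln3 rose by a log2 fold change of 1.51 (SE 0.08, adjusted p 0.00021) and Ndrg1 by 1.08 (SE 0.08, adjusted p 0.00050) in limma. Aldoc rose by 2.19 (SE 0.39, adjusted p 0.0088 in limma), a call that ended without any 1 of the 4 in vitro libraries (adjusted p 0.047 to 0.060) or without either in vivo library of 1 week (0.025). For Ndrg1 the value without the in vitro library 2 of 2 weeks was 0.98, under the fold limit. The count of 3 became 5 without either in vivo library of 2 weeks and 1 without the in vitro library 2 of 2 weeks. Fewer of all tested genes passed in each of these fits than in the full one. Ldhb (0.95), Slc16a1 (0.71) and Slc2a1 (0.81) had adjusted p-values of 0.0034, 0.0016 and 0.0026 in limma under the fold limit. P4ha1 (-0.56, adjusted p 0.0017) was the entry lower at this level. In all, 6 entries were higher and 1 lower at an adjusted p under 0.01, where 6.16% and 3.62% of all tested genes were. The summed cardiomyocyte markers given above differed in the same libraries, with 5 of 9 higher at 2 weeks.

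Time in the heart moved 0 of the 39 entries past the test in limma, where 2.18% of all tested genes passed, 1.23% higher and 0.949% lower. At an unadjusted p under 0.05 in limma there were 18 entries, and 4974 of all 15708 tested genes. In limma voom on fragment counts 0 entries passed, where 302 of all tested genes were higher and 203 lower. Without the in vivo library 2 of 1 week, or without that of 2 weeks, 1 entry passed. In both of those fits fewer of all tested genes passed than in the full one. Below the fold limit, Vegfa (-0.99, SE 0.12, adjusted p 0.0038), Pgk1 (-0.55, SE 0.06, adjusted p 0.0028) and Hif1a (-0.45, SE 0.06, adjusted p 0.0046) were lower at 2 weeks in limma. These were the 3 entries at an adjusted p under 0.01, with 0 on the higher side, where all tested genes gave 1.85% lower and 2.85% higher. Hk2 had a log2 fold change of -0.84 (SE 0.17) with an adjusted p of 0.021 in limma.

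Both comparisons over time can be set against each other by the test of the difference between the weeks, which 3 of the 39 entries passed, namely Slc2a1, Egln3 and Ndrg1, all with a lower value in vivo against in vitro at 2 weeks than at 1 week. Of all tested genes 1.73% passed, 0.573% higher and 1.15% lower, and far fewer of them passed when any 1 library was left out. The count of 3 became 0 without either in vivo library of 1 week, the in vitro library 1 of 1 week or the in vitro library 2 of 2 weeks. It became 1, namely Egln3, without either in vivo library of 2 weeks or the in vitro library 2 of 1 week. Without the in vitro library 1 of 2 weeks it was 1 as well, but this was Gapdh and none of the 3. For Slc2a1 the log2 fold change with time was -0.52 (adjusted p 0.017) in vivo and 0.81 (adjusted p 0.0026) in vitro in limma, neither past the test. For Egln3 and Ndrg1 the time values in vivo were -0.29 and -0.15, and those in vitro were the rises given above. With Hif1a (-0.61, SE 0.08, adjusted p 0.0079 in limma), 4 entries were lower and 0 higher at an adjusted p under 0.01 whatever the fold, where 1.55% and 0.923% of all tested genes were. The median over the 39 entries was -0.23, and that over all tested genes was -0.01.

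Further genes of the same pathways, from lists drawn up by name, were read the same way. Of 31 further glycolysis genes 20 were tested, of which Slc2a10 was higher and Pgam2 and Hk3 were lower at 1 week, joined at 2 weeks by Pgm3 as higher and Tigar as lower, at medians of -0.32 and -0.31. Pgam2, the muscle phosphoglycerate mutase, was lower, at log2 fold changes of -2.53 and -2.96, from 18.1 to 57.7 FPKM in vitro to 2.64 to 7.33 FPKM in vivo. Hk3, the hexokinase of myeloid cells, was lower (-1.44 and -2.09), and Slc2a10 was higher by 1.16 and 1.68. Pyruvate entry and its kinases (13 tested) gave 0 of 13 at 1 week in limma and in limma voom, with 9 at an unadjusted p under 0.05, and Pdk4 as lower at 2 weeks, at medians of -0.37 and -0.29. The pentose phosphate pathway gave 0 of 8 in limma and in limma voom at both weeks, with 6 and 7 at an unadjusted p under 0.05, at medians of -0.29 and -0.15. Of all 15708 tested genes, 7942 at 1 week and 8862 at 2 weeks had an unadjusted p under 0.05 in limma. Glycogen metabolism (13 tested) gave Ppp1r3c as lower at 1 week, and at 2 weeks Ugp2 as higher and Gyg, Pygm and Ppp1r3c as lower, at medians of -0.02 and -0.12.

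Among 13 tested regulators of HIF and of glucose sensing, Txnip was higher and Mlxipl, Arnt2 and Cited2 were lower at 1 week, while at 2 weeks only Txnip and Cited2 passed the test, at medians of -0.26 and -0.35. Txnip, which restrains glucose uptake, was higher in vivo by 1.31 and 1.02, and Cited2, which competes with HIF for its coactivator, was lower (-1.02 and -1.84). Among 38 tested further hypoxia targets the higher ones numbered 8 at 1 week and 5 at 2 weeks and the lower ones 4 at either week, at medians of 0.31 and -0.06. Lox, which crosslinks collagen, was higher by 2.74 and 3.76, and the secreted glycoprotein Stc2 by 1.42 and 3.08. Tfrc, the transferrin receptor, was lower (-1.71 and -2.41), as was Vldlr, a lipoprotein receptor (-2.07 and -1.57). These further hypoxia targets too went in both directions.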

How the data were processed

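RNA of sorted eGFP-positive cells was made into libraries and sequenced by a provider. The authors deposited FPKM for each gene and library, and the submitters' processing notes name CASAVA, HISAT2 2.0.5 and mm10. The counting tool is not given in the sources used here. The deposited FPKM are whole multiples of 1 fragment for 100% of values (tolerance 0.02 of a fragment), so fragments were recovered. Dividing the depth used for scaling by the fragments on genes gave 0.863 to 0.915 for in vivo samples but 1.09 to 1.15 for in vitro samples, so a scaling between libraries is included. Of the 39 entries, 38 have the same coordinates in GENCODE vM21 (GRCm38). No sample columns were left over.

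Values were compared with limma 3.58.1 in R 4.3.3, all 8 libraries in 4 groups, with a variance trend and Benjamini-Hochberg adjustment. DESeq2, the authors' tool, was not run on FPKM. The members, roles and lists were chosen with earlier results of these data known. Genes named with values from each further list were at most 4, those with the largest mean change among genes past the test in the same direction at both weeks with a mean of at least 5 FPKM in the higher group. Other genes of these lists are named where few passed, chosen after their values were seen. The fit was checked on simulated data. Tables and figures were made with Python 3.11.15, pandas 2.3.3 and matplotlib 3.10.9. The alternatives were other pseudocounts, filters, scalings, thresholds, limma without the trend, limma voom on fragments, fewer libraries and the replicate number as a block.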

Additional observations from a re-analysis of the deposited data

Results flagged for a closer look

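In 3 of the genes the effect in vivo against in vitro differed between the weeks by a test of the difference itself, the interaction contrast in limma with Benjamini-Hochberg adjustment. On the log2 scale the value at 2 weeks minus that at 1 week was -1.33 for Slc2a1 (adjusted p 0.0045), -1.80 for Egln3 (0.0021) and -1.23 for Ndrg1 (0.0036). By the same test 1.73% of all tested genes passed, 0.573% higher and 1.15% lower. The calls of Slc2a1 and Ndrg1 ended when any 1 library was left out, with the replicate block and without the variance trend. That of Egln3 ended when any 1 of several libraries was left out. In Slc2a1 the in vivo libraries were the higher ones at 1 week and the lower ones at 2 weeks. In Egln3 the in vivo libraries were lower at both weeks, and in Ndrg1 they were higher at both. Single libraries were not screened for outlying values, since each group holds 2.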

How the results depend on the processing

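None of the 21 gene results past a test changed direction. Without the scaling between libraries the sign changed in vivo against in vitro for 8 entries at 1 week (Slc2a3, Hk1, Pfkp, Pgm1, Pfkfb4, Egln1, Vegfa and Higd1a) and for 6 at 2 weeks (Hk1, Pfkfb4, Hif1a, Egln1, P4ha1 and Ddit4), and under quantile normalization for Slc2a3 at 1 week and Ddit4 at 2 weeks, none of them past the test. Of 396 values for these results under the alternatives, 342 kept their call and 54 lost it, and 13 of the results kept it under every alternative. The looser threshold, an adjusted p under 0.05 with no fold limit, was met in advance by every result past the test. Several others, such as the replicate block, cannot move the fold change or its direction. These tallies therefore overstate how far the calls were tried. At an adjusted p under 0.05 with no limit on the fold change, 29 entries passed at 1 week, 28 at 2 weeks, 17 over time in vitro, 12 over time in vivo and 12 for the difference between weeks. All tested genes were not counted at that level, so these counts cannot be set against them and show nothing particular to the entries. At an unadjusted p under 0.05 in limma the entries numbered 35, 29, 21, 18 and 16, in the same order. There, 7942, 8862, 6003, 4974 and 4233 of all 15708 tested genes did so. Without the scaling between libraries, 14 passed at 2 weeks, where 1032 of all 15708 tested genes were higher and 2087 lower. Over time in vivo 1 passed without that scaling, where 175 of all tested genes were higher and 169 lower. Quantile normalization also gave 1 there, with 195 and 162 of all tested genes. Over time in vitro, limma voom gave 5, where 590 of all tested genes were higher and 273 lower. The 4 libraries of that comparison alone gave 0, and there 0 of all 15708 tested genes passed as well. For the difference between weeks, limma voom gave 6, where 143 of all tested genes were higher and 330 lower. Limma without the variance trend gave 1, where 32 of all tested genes were higher and 39 lower. Leaving out any 1 library also lowered the number of all tested genes past the test of that difference. It changed that number for the other tests too, so the counts that follow cannot be read for the entries alone. Leaving out 1 library gave 7 to 8 entries at 1 week, 7 to 10 at 2 weeks, 1 to 5 over time in vitro, 0 to 1 over time in vivo and 0 to 1 for the difference between weeks; the remaining library of a group is then assumed to vary like the other groups. The replicate numbers correlated at -0.048 to -0.011 between groups and were not treated as pairs. With the replicate number as a block, 1 entry passed for the difference between weeks, since Slc2a1 (adjusted p 0.012) and Ndrg1 (0.011) no longer did, and Eno3 at 1 week (0.019) and Aldoc over time in vitro (0.011) also lost their calls. The causes were not tested. Car9 and Aldoc in vivo rest on few fragments, and the smallest detectable difference was not determined.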
